A study of Mus musculus with 23 samples.

Results

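The genes described here are 47 developmental regulators that are textbook targets of Polycomb repression and lie outside the Hox clusters. They were taken by name, with earlier results of these data known, and all 47 are among the 32285 genes listed in each of the 11 gene-expression matrices. The study set loss of Jarid2 against loss of Ezh2 in mouse blood stem and progenitor cells, using Mx1-Cre to delete floxed alleles of either gene. The cells were KSL cells, that is bone-marrow cells sorted as c-Kit+ Sca1+ Lineage-, profiled with the 10x Genomics 3′ assay, which counts unique molecular identifiers (UMIs). The baseline experiment had 6 libraries from untransplanted 2-month-old mice, with 1 male and 1 female library each of Control, Ezh2 KO (Ezh2 fl/fl) and Jarid2 KO (Jarid2 fl/fl). The transplant experiment had 5 libraries, 1 of Control and 2 each of Ezh2 KO and Jarid2 KO, made 18 weeks after 500000 CD45.2 donor cells were given together with 500000 CD45.1 competitor cells to lethally irradiated primary recipients, and there the sort also required CD45.2. The labels carry Mx1-Cre for every group, Control included, and report no treatment. Mx1-Cre is driven by an interferon-responsive promoter and acts in blood cells and in some other tissues, so deletion is neither restricted to the sorted cells nor certain in each of them.

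Polycomb repressive complex 2 (PRC2) places methyl groups on lysine 27 of histone H3, and genes under that mark are kept silent in cells that do not need them. Ezh2 is its catalytic subunit, for which Ezh1 can partly substitute, and Jarid2 is an accessory subunit that helps the complex to bind chromatin. Its classical targets are transcription factors and signals of the embryo with promoters rich in CG dinucleotides, and most of them have no known role in adult marrow. A few, such as Prdm16, a zinc finger chromatin regulator that maintains blood stem cells, and Ccnd2, a D-type cyclin, are used by normal blood progenitors.

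CG counts were not used to choose the genes, but textbook Polycomb targets are known for promoters rich in CG. An excess of CG over all windows therefore follows from the choice and is not an independent result. Among RefSeq windows of the 250 bases before an annotated start (GRCm38.p6), 26 of the 47 genes had an entry, with 31 windows in all. Those windows held a median of 15 CG dinucleotides (range 4 to 40) against a median of 6 over all 32851 windows, and 18 of the 31 held 15 or more, as did 27.3% of all windows. The motif searched was CG, which reads the same on both strands. One window is shown for each of the 4 genes on which the results turn, 5′ to 3′, with each CG in capitals. Lhx2 has another window, at chr2:38351058-38351307 with 24 CG, which is not shown. A RefSeq start need not be the outer end of the gene span given with each gene's values: the Dlx1 and Prdm16 windows lie inside those spans, the Lhx2 window overlaps the start of its span, and the Foxc1 window ends just before its span. The windows lie at chr2:38339031-38339280 on the plus strand for Lhx2 (25 CG, a number reached by 10.7% of all windows), at chr13:31806396-31806645 on the plus strand for Foxc1 (29 CG, 6.78%), at chr2:71529195-71529444 on the plus strand for Dlx1 (22 CG, 14.8%) and at chr4:154636874-154637123 on the minus strand for Prdm16 (22 CG, 14.8%).
Lhx2: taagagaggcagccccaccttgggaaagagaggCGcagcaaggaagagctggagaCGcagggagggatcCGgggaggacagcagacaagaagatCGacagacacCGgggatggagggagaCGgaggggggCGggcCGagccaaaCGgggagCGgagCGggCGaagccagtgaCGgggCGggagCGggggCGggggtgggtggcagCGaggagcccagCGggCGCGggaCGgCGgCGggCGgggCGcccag
Foxc1: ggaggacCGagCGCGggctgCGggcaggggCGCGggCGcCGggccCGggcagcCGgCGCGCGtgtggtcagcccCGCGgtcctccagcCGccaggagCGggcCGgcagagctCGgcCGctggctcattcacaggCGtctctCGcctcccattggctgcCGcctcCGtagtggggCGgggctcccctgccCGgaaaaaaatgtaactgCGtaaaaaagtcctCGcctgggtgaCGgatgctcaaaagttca
Dlx1: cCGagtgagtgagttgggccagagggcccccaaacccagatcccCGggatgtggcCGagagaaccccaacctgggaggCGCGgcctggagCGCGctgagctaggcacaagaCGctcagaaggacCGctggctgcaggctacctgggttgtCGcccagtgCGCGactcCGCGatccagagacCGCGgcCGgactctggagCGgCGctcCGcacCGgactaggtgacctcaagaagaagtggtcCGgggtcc
Prdm16: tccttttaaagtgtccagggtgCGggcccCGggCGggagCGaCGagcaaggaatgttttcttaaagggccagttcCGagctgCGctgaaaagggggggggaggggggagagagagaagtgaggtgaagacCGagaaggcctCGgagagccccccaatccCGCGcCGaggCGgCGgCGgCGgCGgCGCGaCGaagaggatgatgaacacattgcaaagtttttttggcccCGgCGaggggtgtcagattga

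After removal of poor barcodes and predicted doublets, 73310 of 97066 barcodes remained, between 4354 and 9208 per library, with 65821620 to 125315595 UMIs per library. Mitochondrial RNA over the limit removed 2.82 to 5.82% of baseline barcodes and 25.7 to 43.4% of transplant barcodes. Among the transplant libraries the share was 43.4% in Control, 25.7 and 27.4% in Ezh2 KO, with 36.6 and 37.4% in Jarid2 KO. The part of this in the comparisons with that Control was not tested. Ezh2 itself stood at 208.6 and 192.5 CPM (UMIs of the gene per 1000000 kept UMIs of the library) in the baseline Control libraries, 161.7 and 147.7 in the Ezh2 KO libraries, 181.6 in the transplant Control and 38.7 and 46.8 in the transplant Ezh2 KO libraries. Its fall was called after transplantation (log2 change -2.17, edgeR adjusted p = 0.000999) and not at baseline (-0.33, edgeR adjusted p = 0.0640). Jarid2 was not lower in the Jarid2 KO libraries, at 215.8 and 202.7 CPM against 159.3 and 149.6 at baseline and 57.6 and 56.7 against 38.6 after transplantation, and since the deleted part of the gene is not given in the sources used here, 3′ tags outside it do not check these labels. The baseline matrices carry a header of Cell Ranger 7.2.0 and the transplant matrices one of 6.1.2, so levels cannot be compared between the experiments apart from that difference. Cells with a Y-linked UMI and no Xist UMI made up 18.4% of the transplant Control, 72.5 and 67.5% of the Ezh2 KO and 26.9 and 32.2% of the Jarid2 KO transplant libraries, whereas the baseline libraries stood at 85.7 to 90.2% (male) and 0.178 to 0.880% (female). The labels do not give the sex of the transplant mice. Any 2 libraries shared 4 to 27 cell barcodes, at most 0.409% of the smaller library. The gate held in RNA: Ptprc, the gene of CD45, stood at 142 to 222 CPM and Kit at 124 to 294 CPM in the 11 libraries.

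Most of the 47 genes were silent or nearly so in every genotype. No UMI was found in any library for 7 of them, which are Sox17, Hand1, Hand2, Tlx1, Pax3, Zic1 and Zic2, and 25 (these 7 included) had at most 3 UMIs in every library. A count of 0 is not proof of silence, since it allows up to 3 UMIs per library. At the other end, 7 genes passed 3 UMIs in all 11 libraries: Ccnd2, Prdm16, Nkx2-3, Fgf3, Wnt10a, Bmp7 and Tfap2a. Ccnd2 alone made up 60.8 to 89.2% of the UMIs of the set. The number of genes over 3 UMIs was 16 and 17 in the baseline Control libraries, 17 and 20 in Ezh2 KO, with 14 and 15 in Jarid2 KO. After transplantation it was 8 in Control, 12 and 13 in Ezh2 KO, with 9 and 8 in Jarid2 KO. Each Ezh2 KO library was thus at or above the Control libraries of its experiment, and the 2 baseline Ezh2 KO libraries were also the deepest of that experiment.

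**Figure D1:**
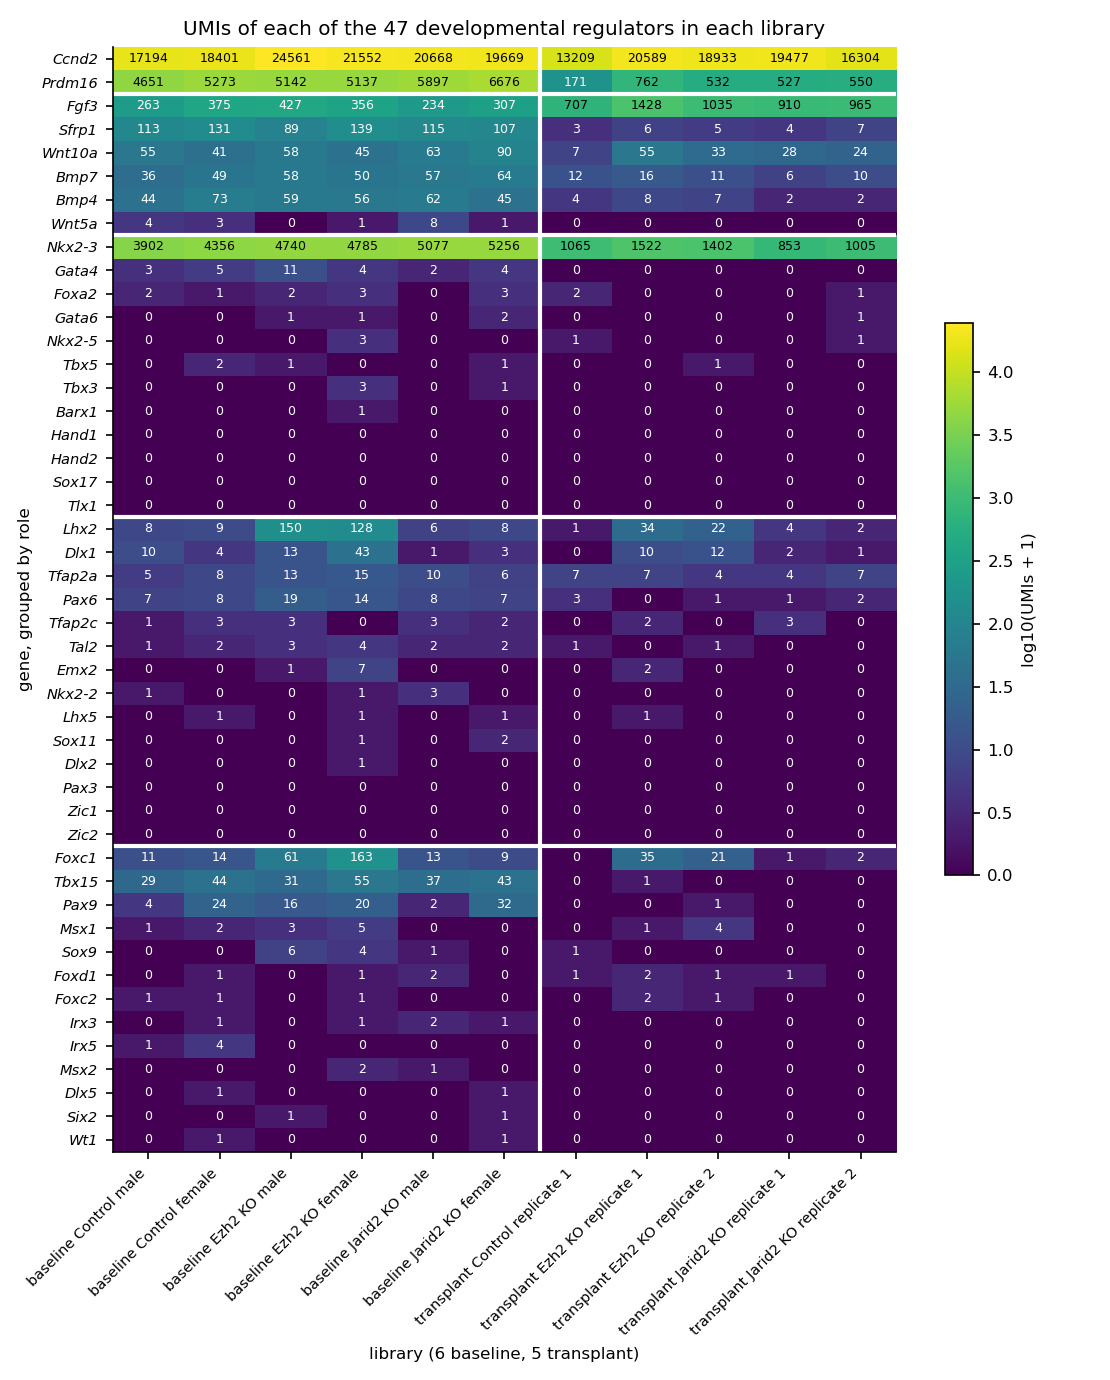
UMIs of each of the 47 genes (vertical axis, grouped by role from the blood-expressed regulators at the top to the genes of skeleton, limb and mesoderm at the bottom) in each of the 11 libraries (horizontal axis), with colour for log10(UMIs + 1). Lhx2, Foxc1 and Dlx1 are brightest in the Ezh2 KO columns, and 25 genes stay at 3 UMIs or fewer in every column.

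Outside 4 blood-expressed genes (Prdm16, Ccnd2, Nkx2-3 and Fgf3), the summed level of the other 43 genes was 4.06 and 4.49 CPM in the baseline Control libraries, 4.78 and 6.85 in Ezh2 KO, with 4.44 and 4.57 in Jarid2 KO. After transplantation it was 0.653 CPM in Control, 1.67 and 1.60 in Ezh2 KO, with 0.635 and 0.723 in Jarid2 KO. The Ezh2 KO libraries were therefore highest in both experiments, and the Jarid2 KO libraries lay close to Control. Lhx2, Foxc1 and Dlx1 were picked from these same counts, so a smaller excess without them follows from the choice. Without them the remaining 40 genes summed at baseline to 3.71 and 4.21 CPM in Control and 2.99 and 3.89 in Ezh2 KO. Jarid2 KO stood at 4.22 and 4.37, and Ezh2 KO no longer exceeded Control. After transplantation the 40 genes stood at 0.638 CPM in Control, 0.948 and 0.897 in Ezh2 KO, with 0.555 and 0.663 in Jarid2 KO, so part of the excess lay outside those 3 genes there.

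A filter on low counts left 15 of the 47 genes for testing at baseline and 9 after transplantation, and a gene that is off in Control can pass that filter only where a knockout raises it. In these tests each library was 1 sample, and called means an adjusted p under 0.05 over all genes tested. At baseline 2 of the 15 genes were called in Ezh2 KO against Control (Lhx2 up, Prdm16 down), where 3.1% of 18135 genes were called. None was called in Jarid2 KO against Control, where 0.0276% of all genes were called; 3 had an unadjusted p under 0.05 (Prdm16, Nkx2-3 and Ccnd2), and DESeq2 called 2 (Prdm16 and Nkx2-3, both higher). In Jarid2 KO against Ezh2 KO, 3 were called (Lhx2 lower in Jarid2 KO, Prdm16 and Nkx2-3 higher), against 5.57% of all genes. After transplantation 2 of the 9 genes were called in Ezh2 KO against Control (Prdm16 and Foxc1, both up), where 4.79% of 15725 genes were called, and 1 in Jarid2 KO against Control (Prdm16, up), where 0.337% were called. In Jarid2 KO against Ezh2 KO, 2 were called there (Lhx2 and Foxc1, both lower in Jarid2 KO), against 11.8%. The 2 contrasts with Control within an experiment share the Control libraries, so their values are given side by side and not as independent results. The single transplant Control was assumed to vary like the knockout libraries, and p-values measure only the spread between these libraries, since the labels do not say how many mice each one pooled.

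The median log2 change of the 15 genes tested at baseline was -0.01 in Ezh2 KO and 0.13 in Jarid2 KO, with medians of all genes tested at -0.004 and 0.0004. After transplantation the median of the 9 genes was 1.33 in Ezh2 KO, the value of Prdm16, and 1.08 in Jarid2 KO, the value of Lhx2, while all genes tested had medians of 0.006 and 0.01. The transplant medians rest on a short list in which Lhx2, Foxc1 and Dlx1 had 0 or 1 UMI in Control, so no weight was put on them. Lhx2, Foxc1 and Dlx1 entered that list through their Ezh2 KO counts. The other genes of the list changed in Ezh2 KO by 2.04 (Wnt10a), 1.33 (Prdm16), 0.22 (Fgf3), 0.02 (Ccnd2), -0.10 (Nkx2-3) and -0.41 (Bmp7).

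**Figure D2:**
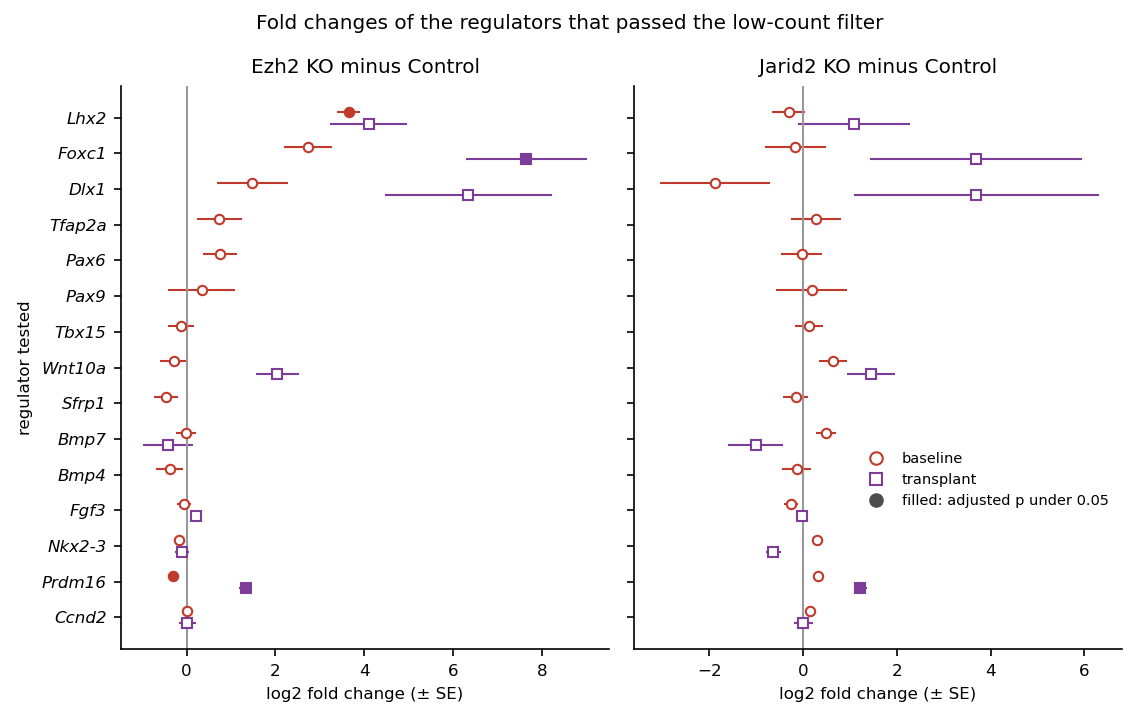
Log2 change against Control (horizontal axis, edgeR, bars for the standard error) of each gene tested (vertical axis), with one panel per knockout, circles or squares for the experiment as keyed in the plot and filled symbols for an adjusted p under 0.05. Filled symbols are Lhx2 and Prdm16 at baseline and Foxc1 and Prdm16 after transplantation in Ezh2 KO, and Prdm16 after transplantation in Jarid2 KO; the transplant values of Foxc1 and Dlx1 are fits against 0 UMIs in Control and are no bound on their size.

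Among the regulators of brain and neural crest, Lhx2 was the gene with the clearest rise. Lhx2 (ENSMUSG00000000247, chr2:38339271-38369737) encodes a LIM homeobox transcription factor of forebrain, eye, limb and hair follicle. At baseline it had 8 and 9 UMIs in the Control libraries (0.0965 and 0.0932 CPM), 150 and 128 in Ezh2 KO (1.20 and 1.13 CPM), with 6 and 8 in Jarid2 KO (0.0669 and 0.0837 CPM). Both Ezh2 KO libraries lay more than an order of magnitude above all others, and Control and Jarid2 KO overlapped in UMIs. Control and Jarid2 KO both lay under the low-count filter, so Lhx2 entered the baseline tests through its Ezh2 KO counts. Its calls at baseline describe that rise and are no independent support for it. The mean rose from 0.0948 ± 0.00229 to 1.17 ± 0.0449 CPM (SD, n = 2 libraries each), which is 12.3-fold, and the change was called (log2 change 3.65, SE 0.26, edgeR adjusted p = 0.0164). It was called with any single baseline library left out, at 3.53 to 3.77. In Jarid2 KO the level was 0.798 times that of Control, and the difference from Ezh2 KO was called (log2 change -3.95, edgeR adjusted p = 0.0127), though not without the Jarid2 KO male library (edgeR adjusted p = 0.0650).

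After transplantation Lhx2 had 1 UMI in Control, 34 and 22 in Ezh2 KO, with 4 and 2 in Jarid2 KO, which correspond to 0.0152, 0.313 and 0.282, and 0.0453 and 0.0241 CPM. The Ezh2 KO libraries again stood above the other 3. Lhx2 entered the transplant tests through those Ezh2 KO counts, so a call there is no independent support for a rise. The ratio of Ezh2 KO to Control was 19.7 (95% counting interval 3.40 to 793), but the change did not pass the test (log2 change 4.10, SE 0.87, edgeR adjusted p = 0.0578). The ratio of Jarid2 KO to Control was 2.31 (0.280 to 106), which leaves both a fall and a rise possible. Lhx2 was lower in Jarid2 KO than in Ezh2 KO (log2 change -3.01, SE 0.53, edgeR adjusted p = 0.0170), a call that was lost without Ezh2 KO replicate 1 (edgeR adjusted p = 0.0546) or Jarid2 KO replicate 2 (edgeR adjusted p = 0.0758). Counting intervals here cover counting error only. Lower bounds replace a count of 0 by 3 counts and leave out the counting error of the higher group.

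Foxc1 (ENSMUSG00000050295, chr13:31806646-31810635), a forkhead transcription factor of mesoderm, eye and vessels that also marks niche-forming stromal cells of marrow, followed the same order of genotypes. At baseline it had 11 and 14 UMIs in Control (0.133 and 0.145 CPM), 61 and 163 in Ezh2 KO (0.487 and 1.44 CPM), with 13 and 9 in Jarid2 KO (0.145 and 0.0942 CPM). The Ezh2 KO libraries did not overlap with the others, and the female library stood far above the male one. The rise was 6.75-fold on the summed level, and the test across libraries missed the threshold (log2 change 2.73, SE 0.53, edgeR adjusted p = 0.0640). The value moved with the libraries used: without the Ezh2 KO male library the change was 3.49 (edgeR adjusted p = 0.0402), and without the Ezh2 KO female library 1.74 (edgeR adjusted p = 0.114). Without the Control male library it was 3.07 (edgeR adjusted p = 0.123), and without the Control female library 2.29 (edgeR adjusted p = 0.248). DESeq2 called it (adjusted p = 0.00816). After transplantation it had 0 UMIs in Control, 35 and 21 in Ezh2 KO (0.322 and 0.269 CPM), with 1 and 2 in Jarid2 KO. Foxc1 entered the transplant tests through those Ezh2 KO counts, so its calls there are no independent support for a rise. Ezh2 KO was at least 6.58-fold higher than Control, with the bound set by 3 counts in Control, and the change was called (edgeR adjusted p = 0.0333). Without the cell filter the fitted log2 change went from 7.64 to 4.39 and was not called (edgeR adjusted p = 0.0701). Neither DESeq2 (adjusted p = 0.0726) nor the fit that left out Ezh2 KO replicate 1 (edgeR adjusted p = 0.0743) made that call. Jarid2 KO was lower than Ezh2 KO (log2 change -3.95, SE 0.59, edgeR adjusted p = 0.00993), in each of the 5 fits that left out 1 transplant library as well.

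Dlx1 (ENSMUSG00000041911, chr2:71528113-71533981), a distal-less homeobox factor of forebrain interneurons, was rarer and gave no call. Its baseline UMIs were 10 and 4 in Control, 13 and 43 in Ezh2 KO, with 1 and 3 in Jarid2 KO. On the CPM scale these were 0.121 and 0.0414, 0.104 and 0.381, and 0.0112 and 0.0314, so the Ezh2 KO and Control libraries overlapped while both Jarid2 KO libraries lay below Control. The Ezh2 KO change was 1.48 (SE 0.80, edgeR adjusted p = 0.337) and the Jarid2 KO change -1.88 (edgeR adjusted p = 0.585). Both values depended on the Control library used: without the Control male they were 3.17 and -0.27, and without the Control female -0.12 and -3.55, for Ezh2 KO and Jarid2 KO in turn. After transplantation Dlx1 had 0 UMIs in Control, 10 and 12 in Ezh2 KO, with 2 and 1 in Jarid2 KO, and Ezh2 KO was at least 2.58-fold higher than Control (edgeR adjusted p = 0.140).

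**Figure D3:**
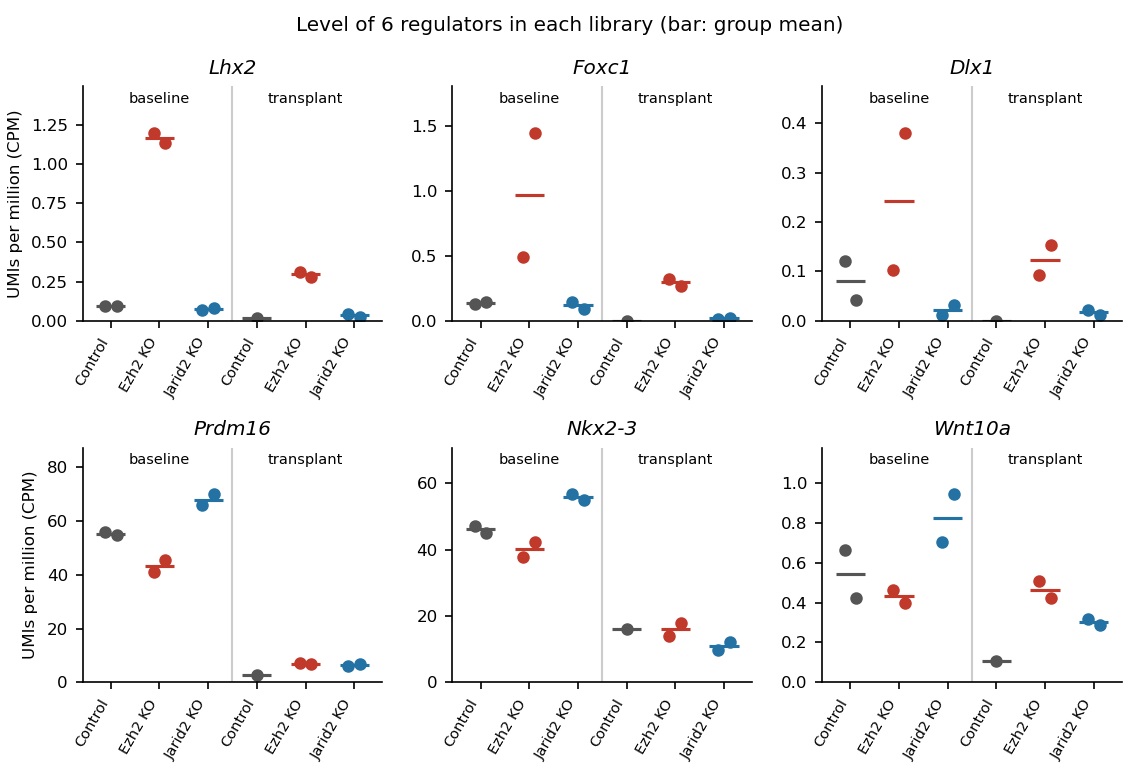
Level of Lhx2, Foxc1, Dlx1, Prdm16, Nkx2-3 and Wnt10a in each library (points) and the group mean (bars), in CPM, for Control, Ezh2 KO and Jarid2 KO in the baseline and transplant experiments. Both baseline Ezh2 KO points of Lhx2 (1.20 and 1.13) lie above all other libraries, and the transplant Control of Prdm16 (2.60) lies below all 4 knockout libraries.

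The Lhx2 and Foxc1 transcripts of the baseline Ezh2 KO libraries came almost wholly from B-like cells. These are cells of 2 clusters named from B-lineage markers and found without using any of the 47 genes. The leading genes of cluster 7 included Ebf1, Pax5, Cd79a and Vpreb1, and those of cluster 10 included Vpreb1, Rag1 and Lef1. Control cells had a median of 14178.5 UMIs in cluster 7 and 4336.5 in cluster 10. Cluster 7 held most B-like cells in every library. There were 441 and 171 B-like cells in Control, 1834 and 1086 in Ezh2 KO, with 203 and 221 in Jarid2 KO, and they held 95.3 and 92.2% of the Lhx2 UMIs and 93.4 and 92.6% of the Foxc1 UMIs of the Ezh2 KO libraries. In counts summed over a library, more cells of a type and more RNA per cell cannot be told apart, so levels within the class are given next. The mix of clusters within the class differed as well. Cluster 10 held 98 and 44 B-like cells in Control, 651 and 388 in Ezh2 KO, with 27 and 68 in Jarid2 KO. The part of this mix in the levels within the class was not tested.

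Within B-like cells Lhx2 stood at 0.817 and 2.22 CPM in Control, 6.06 and 10.0 in Ezh2 KO, with 1.33 and 1.51 in Jarid2 KO. Both Ezh2 KO libraries exceeded all 4 others. The ratio of Ezh2 KO to Control was 6.49 (95% counting interval 3.37 to 14.4, from 261 UMIs in 2920 cells against 9 in 612 cells). The change within the class was called (log2 change 2.65, SE 0.39, edgeR adjusted p = 0.000986), where 9.01% of the genes tested in B-like cells were called. DESeq2 called it too (adjusted p = 0.0311). Lhx2 passed the low-count filter in this class through its Ezh2 KO counts. Calls of Lhx2 in the class are therefore no independent support for the rise. Jarid2 KO B-like cells were lower than Ezh2 KO B-like cells (log2 change -2.50, edgeR adjusted p = 0.00222). The share of B-like cells with an Lhx2 UMI was 0.907 and 1.75% in Control, 6.32 and 9.02% in Ezh2 KO, with 1.48 and 1.81% in Jarid2 KO. All other cells together had shares of 0.0283 to 0.123%, at similar depth: the median UMIs per cell were 9461 to 14482 in B-like cells and 10633 to 12741 in the others. Lhx2 in those other cells was 0.0391 and 0.0528 CPM in Control and 0.0688 and 0.0988 in Ezh2 KO.

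Foxc1 in B-like cells had 0 UMIs in both Control and both Jarid2 KO libraries, and 57 and 151 UMIs (2.41 and 12.8 CPM) in Ezh2 KO. Against 3 counts in Control, Ezh2 KO was at least 15.5-fold higher. Foxc1 passed the count filter in this class through its Ezh2 KO counts alone, so a call there is no independent support for the rise. The change was called in edgeR (adjusted p = 0.000865) and not in DESeq2 (adjusted p = 0.863), and without the Ezh2 KO female library the gene did not pass the count filter. Foxc1 UMIs outside B-like cells showed no such excess, at 0.143 and 0.148 CPM in Control and 0.0393 and 0.119 in Ezh2 KO. In Control and Jarid2 KO these lay mainly in HSC-like cells, with 8 of 11 and 10 of 14 UMIs in Control and 12 of 13 and 8 of 9 in Jarid2 KO. In Ezh2 KO, HSC-like cells held 0 of 4 and 4 of 12. Of the cells with a Foxc1 UMI, 1 of 6 and 2 of 8 in Control, 0 of 50 and 2 of 128 in Ezh2 KO and 5 of 6 and 3 of 5 in Jarid2 KO also had a UMI of Cxcl12, the chemokine of niche stromal cells. A UMI of Ebf1, a factor of the B lineage, was present in 46 of 50 and 120 of 128 of those cells in Ezh2 KO, in 3 of 6 and 2 of 8 in Control and in 6 of 6 and 3 of 5 in Jarid2 KO. Cd79a, a part of the B-cell receptor, had a UMI in 46 and 117 of those cells in Ezh2 KO, 1 and 0 in Control and 0 in both Jarid2 KO libraries. The few cells with UMIs of both Foxc1 and Cxcl12 held much of the Foxc1 count outside Ezh2 KO. They held 6 of 11 and 8 of 14 Foxc1 UMIs in Control, and 12 of 13 and 7 of 9 in Jarid2 KO. In Ezh2 KO they held 0 and 3. Whether the Foxc1 UMIs labelled HSC-like came from stromal cells was not tested.

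Dlx1 was B-like in its distribution as well: 10 of its 10 UMIs in the Control male and 3 of 4 in the Control female lay in that class, and 13 of 13 and 42 of 43 in the Ezh2 KO libraries. Within the class it stood at 1.63 and 1.67 CPM in Control, 0.551 and 3.57 in Ezh2 KO, with 0.332 and 0.757 in Jarid2 KO. The Ezh2 KO libraries fell on both sides of Control. Bmp4 and Tbx15 also appeared in this class in Ezh2 KO: Bmp4, a secreted morphogen, had 35 and 15 UMIs there against 0 and 1 in Control, and Tbx15, a T-box factor of skeleton and skin, had 6 and 12 against 0 and 0. These last counts were named after their values were seen, and neither gene was called in the class.

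When B-like and lymphoid-like cells were left out of the summed counts, a choice made after seeing the data, the baseline Ezh2 KO change of Foxc1 was -0.90 (edgeR adjusted p = 0.511) and Lhx2 no longer passed the count filter. No B-like class formed in the transplant libraries, so only lymphoid-like cells were left out there, and the changes of Lhx2 (3.64, edgeR adjusted p = 0.111) and Foxc1 (6.71, edgeR adjusted p = 0.0773) did not pass the threshold. Cells with B-lineage UMIs outside that class remained in those sums. The summed level of the 8 B-cell markers was 1054 and 313.7 CPM in the baseline Control libraries, 2956 and 1604 in Ezh2 KO, with 447.0 and 441.3 in Jarid2 KO, with none of the 8 at 0. After transplantation it was 47.2 in Control, 558.3 and 423.1 in Ezh2 KO, with 77.1 and 95.8 in Jarid2 KO, again with none at 0.

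No B-like class formed among the transplant cells, so cells were also taken by UMIs of Ebf1, Cd79a and Pax5 together. There were 445 and 185 such cells in baseline Control, 1774 and 1013 in Ezh2 KO, with 206 and 229 in Jarid2 KO. After transplantation there were 7 in Control, 349 and 225 in Ezh2 KO, with 23 and 34 in Jarid2 KO. In the transplant Ezh2 KO libraries these cells held 31 of 34 and 19 of 22 Lhx2 UMIs (6.01 and 7.10 CPM) and 27 of 35 and 15 of 21 Foxc1 UMIs (5.24 and 5.61 CPM). The baseline Ezh2 KO values taken in the same way were 5.93 and 10.1 CPM for Lhx2 and 2.40 and 12.3 CPM for Foxc1, in matrices from the other Cell Ranger version. Neither gene had a UMI in such cells of the transplant Control or Jarid2 KO libraries. At 7, 23 and 34 cells, 0 counts there allow up to 35.8, 9.84 and 8.35 CPM in each library taken alone, limits above the Ezh2 KO levels of both genes. The libraries were not pooled for this, and the difference was not tested. Nearly all cells with an Lhx2 UMI in Ezh2 KO had an Ebf1 UMI, namely 118 of 122 and 98 of 108 at baseline and 29 of 30 and 20 of 20 after transplantation.

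**Figure D4:**
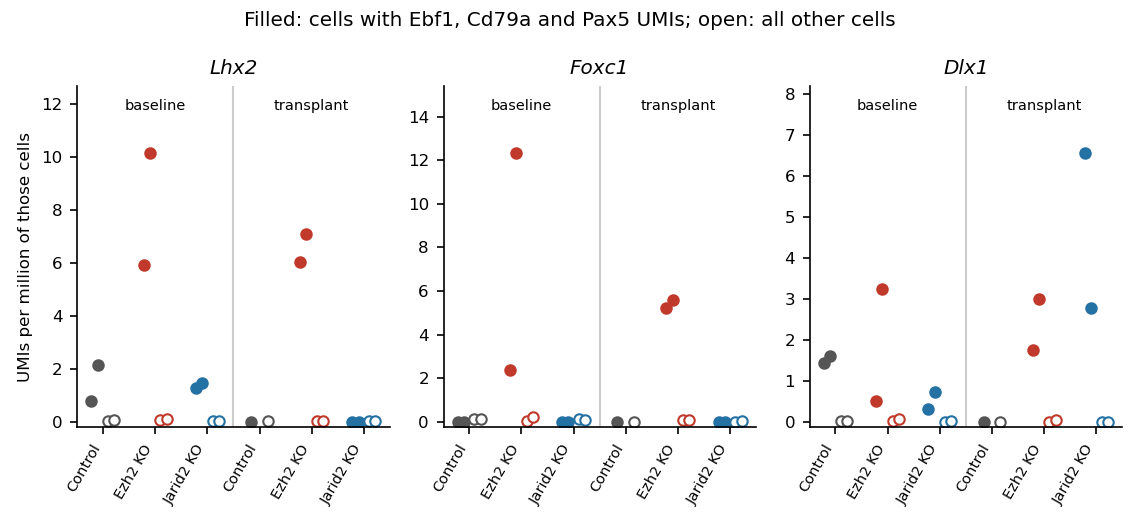
Lhx2, Foxc1 and Dlx1 in CPM of the cells concerned (vertical axes), for cells with UMIs of Ebf1, Cd79a and Pax5 (filled) and for all other cells (open), by library and genotype in both experiments. Filled Ezh2 KO points of Lhx2 lie between 5.93 and 10.1 and open points near 0; the 2 filled transplant Jarid2 KO points of Dlx1 (6.56 and 2.78) rest on 2 and 1 UMIs in 23 and 34 cells.

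Cells with UMIs of more than 1 of the 3 genes were counted next. In Ezh2 KO, 178 and 250 baseline cells and 70 and 40 transplant cells had a UMI of Lhx2, Foxc1 or Dlx1, and 7, 24, 2 and 7 of them had UMIs of 2 or more of these genes. No cell of any Control or Jarid2 KO library did. These counts are of barcodes with UMIs: missed transcripts lower them, and free RNA or remaining doublets raise them, and neither share was estimated. The number that independent detection would give was not computed, so the counts do not say whether the genes met often or rarely. Ezh2 KO also stood above the other genotypes at equal depth. With each baseline cell thinned to 5000 UMIs, 0.0157 and 0.0671% of Control cells, 0.531 and 0.542% of Ezh2 KO cells and 0.0295 and 0.0456% of Jarid2 KO cells had an Lhx2 UMI, against 0.104 and 0.0892%, 1.40 and 1.17%, and 0.0687 and 0.114% without thinning. Thinning left out 346 to 728 cells per baseline library.

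The other regulators of brain and neural crest stayed low. Pax6, the paired-box factor of eye and brain, had 7 and 8 UMIs in baseline Control, 19 and 14 in Ezh2 KO, with 8 and 7 in Jarid2 KO. The Ezh2 KO libraries were higher in both sexes, and the difference did not pass the test (log2 change 0.75, edgeR adjusted p = 0.319). Tfap2a, the AP-2 factor of neural crest and epidermis, ran at 5 and 8, 13 and 15, and 10 and 6 UMIs in the same order (Ezh2 KO change 0.74, edgeR adjusted p = 0.431), and between 4 and 7 in every transplant library. Emx2, a homeobox factor of forebrain and urogenital tract, had UMIs in Ezh2 KO libraries alone, with 1 and 7 at baseline and 2 and 0 after transplantation; at baseline Ezh2 KO was at least 2.01-fold higher than Control. Tal2 had 4 UMIs or fewer in every library, and Tfap2c, Nkx2-2, Lhx5, Sox11 and Dlx2 had 3 or fewer. Pax3, Zic1 and Zic2 had none.

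Among the regulators of heart and endoderm, Nkx2-3 was the only one above a trace. It encodes a homeobox factor needed for spleen and gut vessels, and it is also transcribed in blood stem cells. Its levels were 47.05 and 45.1 CPM in baseline Control, 37.8 and 42.4 in Ezh2 KO, with 56.6 and 55.0 in Jarid2 KO. The 3 genotypes did not overlap, with Ezh2 KO lowest and Jarid2 KO highest. Jarid2 KO was 1.21 times Control (log2 change 0.30, edgeR adjusted p = 0.260) and Ezh2 KO 0.869 times Control (-0.16, edgeR adjusted p = 0.192), and only the difference between the knockouts was called (0.45, edgeR adjusted p = 0.0282). That call was lost without either Jarid2 KO library (edgeR adjusted p = 0.166 and 0.102). After transplantation Nkx2-3 stood at 16.2 CPM in Control, 14.0 and 18.0 in Ezh2 KO, with 9.67 and 12.1 in Jarid2 KO. Jarid2 KO was now the lowest, at 0.671 times Control (log2 change -0.63, edgeR adjusted p = 0.292). The difference in the Jarid2 change between the experiments was -0.92 and was not called (edgeR adjusted p = 0.210), whereas DESeq2 called it.

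Nkx2-3 was highest in HSC-like cells in both experiments, at 97.1 to 115 CPM at baseline and 34.3 to 59.7 CPM after transplantation. Within classes it was called against Control in 2 places. In baseline cluster 3, whose leading genes are histone genes, Jarid2 KO cells stood at 35.7 and 36.7 CPM against 26.1 and 23.1 in Control (log2 change 0.56, edgeR adjusted p = 0.0415; 0.39% of genes called in that cluster), a call lost without either Jarid2 KO library (edgeR adjusted p = 0.142 and 0.394). In transplant cluster 2, again led by histone genes, Ezh2 KO cells stood at 6.28 and 7.22 CPM against 15.5 in Control (log2 change -1.25, edgeR adjusted p = 0.00862; 2.91% of genes called), a ratio of 0.428 (95% counting interval 0.355 to 0.517). Gata4, a zinc finger factor of heart and endoderm, had 3 and 5 UMIs in baseline Control, 11 and 4 in Ezh2 KO, with 2 and 4 in Jarid2 KO and none after transplantation. Foxa2, Gata6, Nkx2-5, Tbx3, Tbx5 and Barx1 had at most 3 UMIs in any library, and Hand1, Hand2, Sox17 and Tlx1 none.

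Besides Foxc1, the regulators of skeleton, limb and mesoderm with more than traces were Tbx15 and Pax9, and neither was called. Tbx15 had 29 and 44 UMIs in baseline Control, 31 and 55 in Ezh2 KO, with 37 and 43 in Jarid2 KO, with 1 UMI in all 5 transplant libraries together. Pax9, a paired-box factor of pharyngeal pouches and skeleton, had 4 and 24, 16 and 20, and 2 and 32 UMIs, most of them in erythroid-like cells (3 and 23, 15 and 19, and 2 and 31). The female library of each genotype was the higher one. Sox9, the master factor of cartilage, had 0 UMIs in both baseline Control libraries and 6 and 4 in Ezh2 KO, at least 2.51-fold higher, with 1 and 0 in Jarid2 KO. Msx1, a homeobox factor of limb and face, had 1 and 2 against 3 and 5 UMIs (ratio 2.01, 95% counting interval 0.482 to 11.8). Irx5 went the other way, with 1 and 4 UMIs in Control and 0 in all 4 baseline knockout libraries. Foxc2, Foxd1, Six2, Wt1, Irx3, Dlx5 and Msx2 had 3 UMIs or fewer in every library.

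Of the 6 secreted signals, none was called in any contrast. Wnt10a, a Wnt ligand, came closest. The level of Wnt10a was 0.663 and 0.425 CPM in baseline Control, 0.463 and 0.398 in Ezh2 KO, with 0.703 and 0.942 in Jarid2 KO. Control overlapped with Ezh2 KO, and Jarid2 KO lay above all others at 1.54 times Control (log2 change 0.64, edgeR adjusted p = 0.502). After transplantation Wnt10a had 7 UMIs in Control (0.106 CPM), 55 and 33 in Ezh2 KO (0.506 and 0.423 CPM), with 28 and 24 in Jarid2 KO (0.317 and 0.289 CPM). All 4 knockout libraries exceeded the Control library. The Ezh2 KO level was 4.43 times Control (log2 change 2.04, SE 0.49, edgeR adjusted p = 0.0805) and the Jarid2 KO level 2.86 times (1.45, edgeR adjusted p = 0.483).

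The baseline UMIs of Wnt10a in Control and Jarid2 KO lay mostly in 1 cluster. At baseline cluster 12, led by immunoglobulin genes, held 44 of 55 and 35 of 41 of its UMIs in Control and 47 of 63 and 74 of 90 in Jarid2 KO. In Ezh2 KO it held 27 of 58 and 24 of 45, a smaller share than in the other 4 libraries. After transplantation Ezh2 KO had 25 and 12 of its UMIs in lymphoid-like and 12 and 9 in HSC-like cells, where Control had 0 and 1. Jarid2 KO had 19 and 16 in cluster 3, which is led by the immunoglobulin genes Igkc and Ighm and where Control had 4 and Ezh2 KO 2 and 0. The classes differed in size as well: lymphoid-like cells were 407 in Control, 1228 and 1086 in Ezh2 KO, with 524 and 598 in Jarid2 KO, and cluster 3 held 527 cells in Control, 250 and 181 in Ezh2 KO, with 690 and 355 in Jarid2 KO. No difference in distribution was tested, nor was the part of class size in it.

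Fgf3, a fibroblast growth factor of inner ear and tail bud, was present in all libraries, at 3.17 and 3.88 CPM in baseline Control, 3.41 and 3.15 in Ezh2 KO, with 2.61 and 3.21 in Jarid2 KO. After transplantation it stood at 10.7 CPM in Control, 13.1 and 13.3 in Ezh2 KO, with 10.3 and 11.6 in Jarid2 KO (Ezh2 KO change 0.22, edgeR adjusted p = 0.419). It was concentrated in basophil and mast-like cells there, at 77.4 CPM in Control, 110 and 150 in Ezh2 KO, with 86.0 and 111 in Jarid2 KO, and at baseline it was highest in megakaryocyte-like cells at 13.3 to 25.4 CPM. Sfrp1, a secreted Wnt inhibitor, had 113 and 131 UMIs in baseline Control, 89 and 139 in Ezh2 KO, with 115 and 107 in Jarid2 KO, mostly in HSC-like cells, and 3 to 7 after transplantation. Bmp7 had 36 and 49, 58 and 50, and 57 and 64 UMIs at baseline (Jarid2 KO change 0.49, edgeR adjusted p = 0.475) and Bmp4 44 and 73, 59 and 56, and 62 and 45. The groups overlapped for Sfrp1 and Bmp4. Wnt5a, a non-canonical Wnt ligand, had 4 and 3 UMIs in baseline Control, 0 and 1 in Ezh2 KO, with 8 and 1 in Jarid2 KO and none after transplantation.

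Prdm16 (ENSMUSG00000039410, chr4:154316122-154637360) moved in opposite directions in the 2 experiments when Ezh2 was lost. Its baseline level was 56.1 and 54.6 CPM in Control, 41.0 and 45.5 in Ezh2 KO, with 65.8 and 69.9 in Jarid2 KO. The 3 genotypes did not overlap, with means of 55.3 ± 1.03, 43.3 ± 3.15 and 67.8 ± 2.90 CPM (SD, n = 2 libraries each). The Ezh2 KO level was 0.780 times Control, a fall that passed the threshold narrowly (log2 change -0.31, SE 0.050, edgeR adjusted p = 0.0470). It was called in 1 of the 6 fits that left out a library, with adjusted p up to 0.169 in edgeR, and was not called without the B-like and lymphoid-like cells (-0.17, edgeR adjusted p = 0.312). The Jarid2 KO level was 1.23 times Control (log2 change 0.31, edgeR adjusted p = 0.183; DESeq2 adjusted p = 0.00837). Jarid2 KO exceeded Ezh2 KO (0.62, edgeR adjusted p = 0.0156), a call lost without either Jarid2 KO library (edgeR adjusted p = 0.0693 and 0.0547). Stem-cell markers had the same order of genotypes: the 10 HSC markers summed to 2075 and 2091 CPM in Control, 1672 and 1913 in Ezh2 KO, with 2327 and 2342 in Jarid2 KO. HSC-like cells, named from such markers, made up 21.5 and 16.0% of Control cells, 13.3 and 15.4% of Ezh2 KO cells and 23.2 and 18.8% of Jarid2 KO cells (male and female in turn). The baseline levels of Nkx2-3 had this order too, and the part of the cell mix in the levels of both genes was not tested.

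After transplantation Prdm16 was measured at lower levels, in matrices from the other Cell Ranger version, and both knockouts stood above Control. It had 171 UMIs in Control (2.60 CPM), 762 and 532 in Ezh2 KO (7.01 and 6.81 CPM), with 527 and 550 in Jarid2 KO (5.97 and 6.63 CPM). The 4 knockout libraries lay close together, and the single Control library lay well below them. The level was 2.67 times Control in Ezh2 KO (log2 change 1.33, SE 0.14, edgeR adjusted p = 0.00662) and 2.42 times in Jarid2 KO (1.22, SE 0.14, edgeR adjusted p = 0.0401). The Ezh2 KO call held with any 1 knockout library left out; the Jarid2 KO call was lost without Jarid2 KO replicate 1 (edgeR adjusted p = 0.0876) or replicate 2 (edgeR adjusted p = 0.113). Leaving out lymphoid-like cells ended the Jarid2 KO call as well. The knockouts did not differ beyond their spread (log2 change -0.11, SE 0.10, edgeR adjusted p = 0.579). The share of cells with a Prdm16 UMI, thinned to 5000 UMIs per cell, was 1.44% in Control, 3.83 and 3.40% in Ezh2 KO, with 3.32 and 3.31% in Jarid2 KO, and 3.42%, 10.2 and 7.91%, and 8.78 and 9.26% without thinning.

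The difference between the experiments was itself called for the Ezh2 effect on Prdm16, at 1.65 (SE 0.12, edgeR adjusted p = 0.00160), where 0.725% of 18898 genes were called. With any of 10 libraries left out in turn it was 1.59 to 1.72. The single transplant Control was not among them, since the difference cannot be fitted without it, so its part in the value was not tested. Prdm16 was the only one of 15 genes called in the test of the difference. For the Jarid2 effect the difference was 0.92 (edgeR adjusted p = 0.106), and none of the 15 genes was called, as for 0% of all genes; 3 of the 15 had an unadjusted p under 0.05 and DESeq2 called 2 of them.

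Transplant Prdm16 was also split by the sex-linked UMIs of the cells. In cells with a Y-linked UMI and no Xist UMI, Prdm16 stood at 3.75 CPM in the transplant Control (52 UMIs in 803 cells), 5.79 and 5.87 in Ezh2 KO, with 6.24 and 6.97 in Jarid2 KO. In all other cells it stood at 2.29, 11.2 and 9.36, and 5.85 and 6.44. Control was the lowest library in both subsets. In the first subset alone the change was 0.58 in Ezh2 KO (edgeR adjusted p = 0.198) and 0.76 in Jarid2 KO (edgeR adjusted p = 0.343), and the difference of the Ezh2 effect between the experiments was 0.91 (edgeR adjusted p = 0.0652). All 3 kept their direction and lost their call. The labels do not say why single transplant libraries hold both kinds of cells.

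In the baseline libraries Prdm16 was a stem-cell gene: HSC-like cells, named from markers such as Procr, Hlf and Mecom, held 130 and 136 CPM in Control, 126 and 119 in Ezh2 KO, with 138 and 147 in Jarid2 KO. Megakaryocyte-like cells followed at 59.0 to 93.4 CPM, and B-like cells were among the lowest at 1.33 to 3.89 CPM. Across the cell classes of all baseline libraries, Jarid2 KO gave 5 gene-by-class calls, where 0.723% of all such tests were called, and Ezh2 KO gave 2 (Lhx2 and Foxc1 in B-like cells), where 1.65% were called. Prdm16 was among the Jarid2 KO calls in cluster 3, at 48.6 and 56.9 CPM against 38.1 and 34.7 in Control and 31.3 and 30.9 in Ezh2 KO, a ratio of 1.44 to Control (95% counting interval 1.33 to 1.56; log2 change 0.54, edgeR adjusted p = 0.0492). DESeq2 gave an adjusted p of 0.0546, and the call was lost without the Control female (edgeR adjusted p = 0.0560), the Jarid2 KO male (0.0887) or the Jarid2 KO female library (0.455). In HSC-like cells neither knockout was called for Prdm16.

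The T/ILC-like class gave 1 further Prdm16 call in Jarid2 KO (log2 change -3.30, edgeR adjusted p = 0.0278), where 3.34% of its genes were called. It rested on 1 library: the Control female held 46 UMIs in 3 of its 86 cells and the Control male 0, and without that library the change was 4.85 (edgeR adjusted p = 0.690). Without the Jarid2 KO female library it was -0.34 (edgeR adjusted p = 0.994). The Jarid2 KO libraries had 6 UMIs each. Cluster 11 held most of the class in Jarid2 KO and 43 of 86 cells in the Control female.

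After transplantation Prdm16 gave 4 of the 5 gene-by-class calls in Ezh2 KO, where 1.8% of such tests were called, and the single call in Jarid2 KO, where 0.0834% were called. As at baseline, these counts cannot be set against those shares. Prdm16 stood highest in HSC-like cells, at 7.47 CPM in Control, 13.2 and 11.2 in Ezh2 KO, with 10.7 and 12.6 in Jarid2 KO, without a call. In myeloid-like cells it had 2 UMIs in Control (0.150 CPM), 4.48 and 5.12 CPM in Ezh2 KO and 3.58 and 4.28 CPM in Jarid2 KO. The ratio to Control was 31.7 in Ezh2 KO (95% counting interval 8.61 to 264; edgeR adjusted p = 0.00407, with 1.01% of genes called in the class) and 26.3 in Jarid2 KO (7.17 to 219; edgeR adjusted p = 0.0253, with 0.0479% called). Cluster 5 held more of this class than cluster 7 in all 5 libraries. In lymphoid-like cells it had 4 UMIs in Control (0.559 CPM) and 4.62 and 4.24 CPM in Ezh2 KO, a ratio of 7.98 (3.05 to 29.7; edgeR adjusted p = 0.0129, with 4.16% called), and Jarid2 KO stood at 4.95 and 5.74 CPM without a call.

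Cluster 1, led by genes of the G1/S transition, and cluster 2, led by histone genes, gave the other Ezh2 KO calls of Prdm16. Cluster 1 stood at 2.98 CPM in Control against 8.30 and 8.51 in Ezh2 KO (ratio 2.81, 95% counting interval 1.97 to 4.12; edgeR adjusted p = 0.0387, with 1.26% called). Cluster 2 stood at 2.08 CPM against 5.60 and 5.72 (ratio 2.71, 1.81 to 4.24; edgeR adjusted p = 0.0337), a call lost without either Ezh2 KO library (edgeR adjusted p = 0.0774 and 0.0695). Jarid2 KO values in the same clusters were 7.03 and 6.49, and 5.45 and 6.56 CPM, without a call. DESeq2 did not call cluster 1 (adjusted p = 0.0662) or cluster 2 (adjusted p = 0.0773). In each of the 8 classes shown by class and library the Control library was the lowest of the 5. All 8 classes are parts of that single Control library, so they are not independent results.

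**Figure D5:**
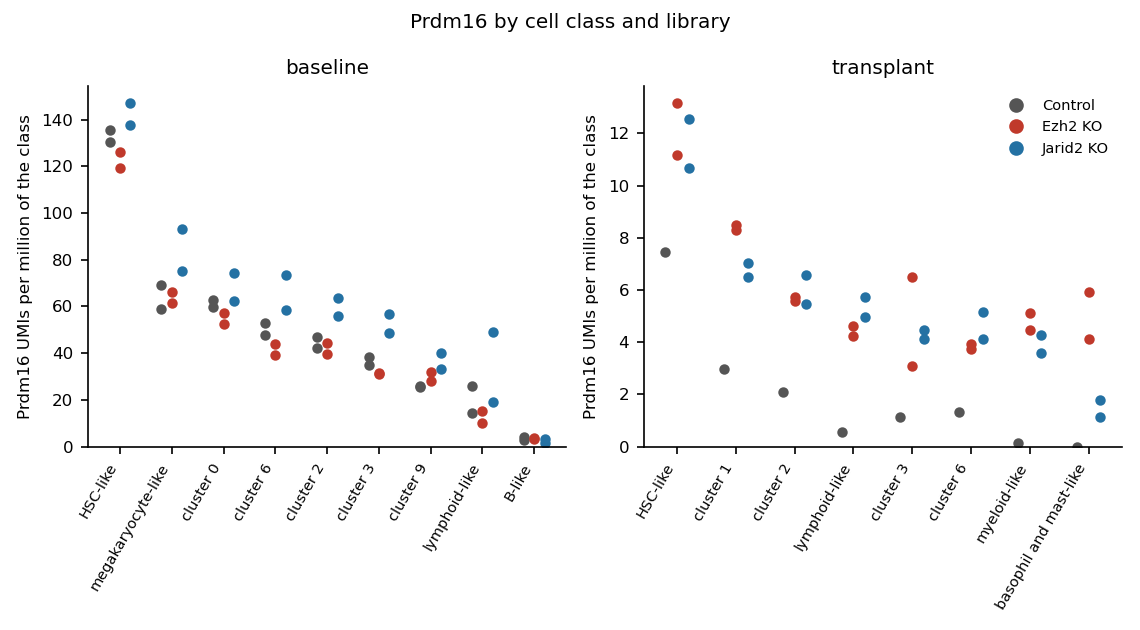
Prdm16 in CPM of the class (vertical axes, which differ between the panels) by cell class (horizontal axes) and genotype, with 1 point per library; the baseline panel leaves out the T/ILC-like class. The baseline level is highest in HSC-like cells (119 to 147) in all genotypes, and the transplant Control point is the lowest in each class shown. All transplant Control points come from 1 library.

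Ccnd2, which drives the G1 phase of the cell cycle and is the most abundant of the 47 genes, hardly differed between genotypes. Its baseline level was 207.3 and 190.6 CPM in Control, 196.0 and 190.9 in Ezh2 KO, with 230.6 and 205.9 in Jarid2 KO. After transplantation it stood at 200.7 in Control, 189.5 and 242.5 in Ezh2 KO, with 220.7 and 196.5 in Jarid2 KO. The groups overlapped in each experiment, except that the baseline Jarid2 KO libraries were each above the Control library of the same sex (log2 change 0.15, edgeR adjusted p = 0.350). Within classes Jarid2 KO was called at baseline in HSC-like cells, at 351 and 353 CPM against 295 and 302 in Control (ratio 1.18, 95% counting interval 1.15 to 1.22; edgeR adjusted p = 0.0499, with 0.571% of genes called there), and Ezh2 KO stood between at 327 and 314. The other call was in T/ILC-like cells, at 352 and 349 CPM against 196 and 240 (ratio 1.62, 1.39 to 1.90; edgeR adjusted p = 0.0243), where Ezh2 KO stood at 330 and 331. The mix of clusters in that class differed between the groups: cluster 11 held 251 of 273 and 274 of 311 of its cells in Jarid2 KO, and 73 of 108 and 43 of 86 in Control, and the part of this in the call was not tested. Leaving out any 1 of the 4 Control and Jarid2 KO libraries ended both calls, with edgeR adjusted p of 0.0534 to 0.254 in HSC-like cells and 0.0642 to 0.312 in T/ILC-like cells.

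Relatives of the 47 genes and their pathways were counted in the same tests. Of 186 genes of the same families, 77 were tested at baseline and 59 after transplantation. In Ezh2 KO, 2 were called at baseline (Prdm8 up, Sox6 down) and 6 after transplantation (Fgf13, Foxo1, Pax5 and Sox5 up, Gata3 and Sox6 down), and in Jarid2 KO none was called in either experiment. Over all genes tested, 3.1% and 4.79% were called in Ezh2 KO, with 0.0276% and 0.337% in Jarid2 KO, at baseline and after transplantation in turn. Of 45 receptors, mediators and targets of Wnt, BMP and FGF signals, 2 of the 34 tested rose in baseline Ezh2 KO: Bmpr1a, a BMP receptor (log2 change 1.58, edgeR adjusted p = 0.0160), and Id1, a BMP target (2.33, edgeR adjusted p = 0.0139). After transplantation 5 of the 29 tested rose in Ezh2 KO (Bmpr1a, Id1, Id3, Lef1 and Smad7) and 2 in Jarid2 KO (Bmpr1a and Lef1). Id3, Pax5 and Lef1 are among the leading genes of the baseline B-like clusters, and the 8 B-cell markers summed to 47.2 CPM in transplant Control, 558.3 and 423.1 in Ezh2 KO, with 77.1 and 95.8 in Jarid2 KO. The part of B-lineage cells in these calls was not tested. Median changes of that list were 0.25 and 0.046 at baseline and 0.17 and -0.01 after transplantation, for Ezh2 KO and Jarid2 KO in turn. Among the 39 Hox genes, for comparison, 1 rose and 1 fell of 19 tested in baseline Ezh2 KO, 2 rose and 3 fell of 20 in transplant Ezh2 KO, and none was called in Jarid2 KO.

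Markers of cells outside the gate were checked because many of the 47 genes are active in such cells. The 13 stromal markers summed to 294 to 368 CPM at baseline and 78.3 to 103 CPM after transplantation. The stromal gene Lepr stood at 0.193 to 0.725 CPM at baseline and at 0.0113 to 0.0897 CPM after transplantation, and Dcn was at 0 in all 5 transplant libraries. The 8 endothelial markers summed to 130 to 163 and 74.3 to 88.1 CPM. The summed level of the 7 neural and Schwann markers was highest in the Ezh2 KO libraries of each experiment, as were the levels of Lhx2 and Foxc1. It came to 7.84 and 8.30 CPM in baseline Control, 13.0 and 17.6 in Ezh2 KO, with 8.50 and 8.19 in Jarid2 KO, and after transplantation it was 7.43 in Control, 27.6 and 26.9 in Ezh2 KO, with 5.67 and 6.38 in Jarid2 KO. Of that list only Ncam1, a cell adhesion molecule of neurons and some blood cells, was called up against Control in Ezh2 KO, in both experiments. Sox10 was at 0 in all 5 transplant libraries and in the baseline Control female, Ezh2 KO male and Jarid2 KO female. After transplantation 2 to 4 of the 7 markers had 3 UMIs or fewer in a library. Of the stromal list, none of the 8 genes tested was called in either baseline contrast with Control. The part of such cells in the levels of the rare genes was not tested.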

How the data were processed

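Single-cell RNA was measured in 11 libraries of sorted mouse KSL cells; the antibody and H3K27me3 libraries of the series were not analysed here. The deposited matrices hold raw UMI counts per gene and barcode. The file headers name Cell Ranger 7.2.0 (baseline) and 6.1.2 (transplant), while the submitters' processing notes name Cell Ranger 3.1.0, Seurat 3.0, Partek and mm10. Neither the annotation nor whether introns were counted is known from these sources.

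Barcodes with at least 1000 UMIs, 500 genes and at most 10% mitochondrial UMIs were kept, and predicted doublets were removed by scoring against simulated doublets (0.8% expected per 1000 barcodes). Control cells of each experiment were clustered (2000 variable genes, 30 components, 15 neighbours, Leiden resolution 0.4, chosen after other resolutions had been seen) without the 47 genes, Jarid2, Ezh2, sex-linked, mitochondrial and ribosomal protein genes, and the other cells took the label of their nearest Control cells. Clusters were named from marker lists and needed 3 markers. Counts were summed per library, or per library and class with at least 50 cells in every library, and tested with edgeR 4.0.16 (quasi-likelihood, TMM, filterByExpr, Benjamini-Hochberg over all genes tested, threshold 0.05) in R 4.3.3. Baseline fits had a sex term, and the interaction used all 11 libraries. Levels are CPM. A count of 0 was bounded by 3 counts, and ratios of small counts carry exact 95% intervals. DESeq2 1.42.0, RLE scaling, no low-count filter, no cell filter, doublets kept, no sex term, only the 2 groups compared, cells with a Y-linked UMI and no Xist UMI, each library left out, a replicate block, and sums without B-like and lymphoid-like cells were the alternatives. The tests were checked on simulated data. Replicate numbers did not pair the transplant knockout libraries: replicate differences had a correlation of 0.0322 over 8085 genes. The 47 genes, the gene lists and the tests were chosen with earlier results of these data known. Full values are given for genes called in any contrast or highest in Control, and others by count and range.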

Additional observations from a re-analysis of the deposited data

Results flagged for a closer look

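The change of Prdm16 on loss of Ezh2 differed between the experiments by 1.65 on the log2 scale (transplant minus baseline), and this difference was itself tested across all 11 libraries (SE 0.12, edgeR adjusted p = 0.00160). In transplant cells with a Y-linked UMI and no Xist UMI it was 0.91 and lost its call (edgeR adjusted p = 0.0652). The baseline level was 55.3 CPM in Control and 43.3 CPM in Ezh2 KO, a fall not called without B-like and lymphoid-like cells (-0.17, edgeR adjusted p = 0.312), and after transplantation the level stood at 6.91 CPM in Ezh2 KO against 2.60 CPM in the single Control. Ezh2 itself changed by -0.33 at baseline, without a call (edgeR adjusted p = 0.0640), and by -2.17 after transplantation (edgeR adjusted p = 0.000999). The experiments also differed in Cell Ranger version, in the share of barcodes over the mitochondrial limit and in the mix of cells with and without Y-linked UMIs, and these cannot be told apart from the transplant itself.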

How the results depend on the processing

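Counts of the 47 genes called moved as follows, with genes named where the alternative still called them. In baseline Ezh2 KO against Control the count of 2 became 1 without a sex term (Lhx2) and 0 without B-like and lymphoid-like cells, and ran from 1 to 2 with a library left out. Foxc1 was called there in DESeq2 (adjusted p = 0.00816) and, in edgeR, without the low-count filter (adjusted p = 0.0356) and with only the 2 groups compared (adjusted p = 0.0473), where Prdm16 was not. In baseline Jarid2 KO against Control it went from 0 to 2 in DESeq2 (Prdm16, Nkx2-3). Baseline Jarid2 KO against Ezh2 KO went from 3 to 0 without B-like and lymphoid-like cells and ran from 0 to 5 with a library left out. In transplant Ezh2 KO against Control the count of 2 became 1 (Prdm16) in DESeq2, without the cell filter and without B-like and lymphoid-like cells, 4 without the low-count filter (Lhx2, Foxc1, Wnt10a, Prdm16) and 0 in male transplant cells, and ran from 1 to 2 with a library left out. Transplant Jarid2 KO against Control went from 1 to 0 in male transplant cells and without B-like and lymphoid-like cells, and ran from 0 to 1. Transplant Jarid2 KO against Ezh2 KO went from 2 to 4 without the cell filter and 0 in male transplant cells, and ran from 1 to 3. With the replicate block, knockout libraries only, it was 3, with Lhx2 at -3.02 (edgeR adjusted p = 0.0334) and Foxc1 at -3.95 (edgeR adjusted p = 0.0246).

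The difference between the experiments went from 1 to 0 for Ezh2 in male transplant cells, and from 0 to 2 in DESeq2 and 1 without the low-count filter for Jarid2. Calls within classes fell in DESeq2 from 2 to 1 (baseline Ezh2 KO), 5 to 1 (baseline Jarid2 KO) and 5 to 3 (transplant Ezh2 KO), and ran from 1 to 4, 0 to 10 and 4 to 5 with a library left out. The Prdm16 change in T/ILC-like cells of baseline Jarid2 KO ran from -4.40 to 4.85 with a library left out and reversed, to the upper value, without the Control female library. Of the alternative values of the fold changes called in the main tests, 167 kept direction and call, 51 kept direction and lost the call, and 1 reversed. Fold changes without a call were not tallied, and some changed sign: in baseline Ezh2 KO, Foxc1 went to -0.90 without B-like and lymphoid-like cells, and Dlx1 to -0.12 without the Control female library. Leaving out the only transplant Control removes every contrast with it, so that fit gave no value. Leaving out B-like and lymphoid-like cells was chosen after seeing the data, and in the transplant libraries, where no B-like class formed, it removed lymphoid-like cells only. The cause of these shifts was not tested. Depth limits the rare genes: most had too few UMIs to test, and only a handful of B-marker cells came from the transplant Control.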
